A study of Homo sapiens with 66 samples.

Results

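The ABC drug efflux transporters ABCB1, ABCC1, ABCC2, ABCC3, ABCC4, ABCC5, ABCC6 and ABCG2 were followed through RNA sequencing of 11 cell lines of acute myeloid leukaemia (AML). The 8 genes were taken by symbol from 57992 gene identifiers, with no filter on their values but with earlier results of these data known. Each symbol matched 1 identifier. Each line was left untreated or exposed for 24 h to etoposide, giving 66 libraries, 3 for each line and treatment, and each library came from cells of 3 pooled wells. The concentration was the line's own IC50, the concentration of median effect in the study's cell viability assay, so line and dose cannot be told apart. From the lowest to the highest IC50 the lines order as OCI-AML2, MOLM-13, NB-4, HL-60, OCI-AML3, THP-1, MV-4-11, NOMO-1, MONO-MAC-6, KASUMI-1 and F-36P, names that the labels write without hyphens. For the last of them the IC50 exceeds every concentration in the study's dose series. The study discarded the etoposide libraries of OCI-AML2 for the quality of their raw reads. That line therefore enters the basal comparisons, and its etoposide values stand apart from those of the other 10 lines.

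ABC transporters use the energy of ATP to move substrates across membranes, and the members of this group can pump drugs out of the cell. Etoposide traps topoisomerase II on cut DNA, and it is a known substrate of P-glycoprotein, the product of ABCB1, and of several multidrug resistance proteins, the products of the ABCC genes. In AML, P-glycoprotein is best known as a marker of drug-resistant, immature blasts.

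Reads on genes numbered 18261596 to 21304265 in the untreated and 17997404 to 24101670 in the etoposide libraries. Levels are given as CPM, the count scaled to the size of its library with TMM factors of the line, and 1 read in a library is about 0.05 CPM. A count of 0 over the 3 libraries of a group allows up to 3 reads, or 0.0408 to 0.0567 CPM, for counting error only. The surface markers CD33 and PTPRC were read in every line, with untreated means of 69.9 CPM or more for CD33 and 32.5 CPM or more for PTPRC. Of the 4 surface markers counted, IL3RA had 0 reads in the untreated libraries of each line, and in the etoposide libraries too. Whether its transcript was absent or its reads went uncounted was not tested, so the 0 is not taken as absence. Since these are bulk libraries, fewer cells that carry a transcript and less of it per cell cannot be told apart.

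The untreated lines were first compared for their basal levels, because the study asked which basal transcripts go with sensitivity to etoposide. All 8 members differed between the 11 lines (quasi-likelihood F test of edgeR, the highest adjusted p was 1.84e-08 for ABCG2), as did 99.4% of all 18130 genes tested. The members fell into ABCC1, ABCC2, ABCC4 and ABCC5, which had at least 1 CPM in all 11 lines, and ABCB1, ABCC3, ABCC6 and ABCG2, which were at or under 3 reads in 8, 7, 4 and 7 lines. Basal levels below are scaled over the 33 untreated libraries, and the range is that of the 3 libraries.

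ABCB1 (ENSG00000085563.14, chr7:87503017-87713323, minus strand of GRCh38) encodes P-glycoprotein. Untreated KASUMI-1 had the highest level with 9.96, 11.6 and 11.8 CPM, followed by F-36P with 3.23, 4.83 and 7.51 CPM. These ranges did not overlap, and KASUMI-1 and F-36P differed at an adjusted p of 7.42e-05 (edgeR). THP-1 came next with 0.153 to 0.355 CPM, lower than F-36P (adjusted p = 5.10e-11) and above MOLM-13 (adjusted p = 0.0310). The other 8 lines had between 0 and 2 reads in all 3 libraries together, and no neighbours among them differed beyond their spread. Of the 55 pairs of lines, 27 differed for ABCB1, against 66.8% of all tests of a gene in a pair.

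RefSeq (GRCh38.p14) places starts of ABCB1 at 2 distant positions, and the 300 bases around each are shown because ABCB1 is the member with the largest changes after etoposide. The third sequence is that of ABCC4, the member with the most calls of lower level. Capitals mark the letters of 3 motifs searched on both strands: the CCAAT box (CCAAT), the GC box (GGGCGG) and an AP-1-like site (TGANTCA). Of 35116 promoters of this length, 34.6% hold a CCAAT box, 44.95% a GC box and 7.71% an AP-1-like site.
ABCB1 upstream start, chr7:87713246-87713545, minus strand: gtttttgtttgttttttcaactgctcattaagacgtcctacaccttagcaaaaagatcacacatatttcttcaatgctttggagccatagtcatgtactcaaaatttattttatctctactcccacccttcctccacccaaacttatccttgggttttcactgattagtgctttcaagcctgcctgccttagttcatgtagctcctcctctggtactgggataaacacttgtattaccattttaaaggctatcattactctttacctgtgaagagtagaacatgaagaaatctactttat
ABCB1 inner start, chr7:87600835-87601134, minus strand: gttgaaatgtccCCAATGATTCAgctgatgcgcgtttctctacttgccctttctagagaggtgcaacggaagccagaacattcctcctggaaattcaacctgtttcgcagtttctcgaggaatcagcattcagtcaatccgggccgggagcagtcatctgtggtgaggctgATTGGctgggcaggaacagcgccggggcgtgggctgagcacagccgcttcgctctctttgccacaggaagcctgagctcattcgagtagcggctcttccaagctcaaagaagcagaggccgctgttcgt
ABCC4, chr13:95301402-95301701, minus strand: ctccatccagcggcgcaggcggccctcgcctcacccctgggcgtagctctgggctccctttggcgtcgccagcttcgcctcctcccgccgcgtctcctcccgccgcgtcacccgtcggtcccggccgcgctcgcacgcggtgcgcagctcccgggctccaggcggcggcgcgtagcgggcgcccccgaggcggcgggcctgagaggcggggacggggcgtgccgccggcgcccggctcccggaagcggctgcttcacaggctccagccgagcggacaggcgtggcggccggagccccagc
The inner ABCB1 window held 2 CCAAT boxes, 1 on either strand, and 1 AP-1-like site that shares a base with the first of them. None of the 3 motifs was found in the upstream ABCB1 window or in that of ABCC4, whose bases are G or C at 79.7%. Counts per gene do not tell which start was used.

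ABCC1 (MRP1, ENSG00000103222.18, chr16:15949138-16143257, plus strand) exports glutathione conjugates together with several cytotoxic drugs. Its basal level ran from a lowest mean of 9.52 ± 0.896 CPM (SD, n = 3) in THP-1 to a highest mean of 38.6 ± 2.74 CPM in KASUMI-1, 4.05-fold apart and the narrowest range of the 4 members read in every line. KASUMI-1 stood above the next line, NOMO-1 (adjusted p = 0.0112, edgeR). The 7 lines from NOMO-1 down to MONO-MAC-6 lay at means of 31.8 to 22.2 CPM, and no neighbours among them differed beyond their spread. MV-4-11, MOLM-13 and THP-1 formed the low end at 13.2, 11.9 and 9.52 CPM, and MONO-MAC-6 was above MV-4-11 at an adjusted p of 1.53e-07. In 45 of 55 pairs of lines ABCC1 differed.

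ABCC4 (MRP4, ENSG00000125257.13, chr13:95019835-95301475, minus strand), an exporter of cyclic nucleotides and nucleotide analogues, and ABCC5 (MRP5, ENSG00000114770.16, chr3:183919934-184017939, minus strand), which also carries cyclic nucleotides, had the highest levels. ABCC4 ranged from 16.6 ± 1.52 CPM in NB-4 to 102 ± 3.26 CPM in MV-4-11. F-36P, at 98.8 ± 20.2 CPM, did not differ from MV-4-11 (adjusted p = 0.747, edgeR), and its 3 libraries spread from 81.2 to 121 CPM. ABCC5 had the widest range among the 4 members read in every line, from 14.6 ± 0.774 CPM in THP-1 to 197 ± 12.4 CPM in F-36P, which is 13.5-fold. OCI-AML2, the line of the lowest IC50, came second with 146 ± 8.46 CPM, and each of the 4 highest lines differed from the next one in the order. ABCC5 was the member that differed in the most pairs, 49 of 55. The antisense gene ABCC5-AS1 overlaps ABCC5, and if the counts ignored strand their reads cannot be told apart.

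ABCC2 (MRP2, ENSG00000023839.10, chr10:99782640-99852594, plus strand) is best known from the bile canaliculus of the liver, where it exports bilirubin glucuronides. It was low but present, at 1.54 ± 0.565 CPM in OCI-AML3 up to 8.17 ± 0.444 CPM in OCI-AML2. From NOMO-1, next after KASUMI-1, down to OCI-AML3 no neighbours differed at an adjusted p below 0.05 (edgeR). The ranges of MONO-MAC-6 and NB-4 did not overlap (adjusted p = 0.132), and ABCC2 differed in 41 of 55 pairs of lines. ABCC6 (ENSG00000091262.14, chr16:16149565-16223522, minus strand), known for the release of ATP from liver cells, was highest in THP-1 (4.77 ± 0.568 CPM) and MOLM-13 (4.02 ± 0.371 CPM), which did not differ (adjusted p = 0.294). OCI-AML2, MONO-MAC-6, NOMO-1 and OCI-AML3 followed at 2.43 to 0.983 CPM, and the other 5 lines had 0 to 5 reads in all. ABCC6 has near-identical pseudogene copies, so reads may have been lost or assigned among them, and its levels are uncertain for that reason.

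ABCC3 (MRP3, ENSG00000108846.15, chr17:50634777-50692253, plus strand) exports glucuronides, that of etoposide among them. THP-1 was the only line above 1 CPM, with libraries of 0.900, 1.22 and 1.78 CPM, higher than MONO-MAC-6 at 0.400 ± 0.121 CPM (adjusted p = 0.00157, edgeR). ABCG2 (breast cancer resistance protein, ENSG00000118777.10, chr4:88090150-88231628, minus strand) works as a dimer and marks the side population of blood stem cells. Its highest level was 0.799 ± 0.101 CPM in F-36P, above NOMO-1 at 0.307 ± 0.0433 CPM (adjusted p = 0.00528), and 4 lines had 0 reads.

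Levels of different genes were compared per kilobase of exon. ABCC4 was the highest of the 8 members in 7 untreated lines and ABCC5 in the other 4, and in NB-4 ABCC1 stood between ABCC5 and ABCC4 at 3.69 CPM per kb. The sum over the 8 members ran from 7.47 CPM per kb in THP-1 to 34.9 CPM per kb in F-36P. ABCB1 in untreated KASUMI-1 reached 1.73 CPM per kb, below ABCC4, ABCC5 and ABCC1 of the same line at 8.57, 7.05 and 4.41 CPM per kb.

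**Figure D1:**
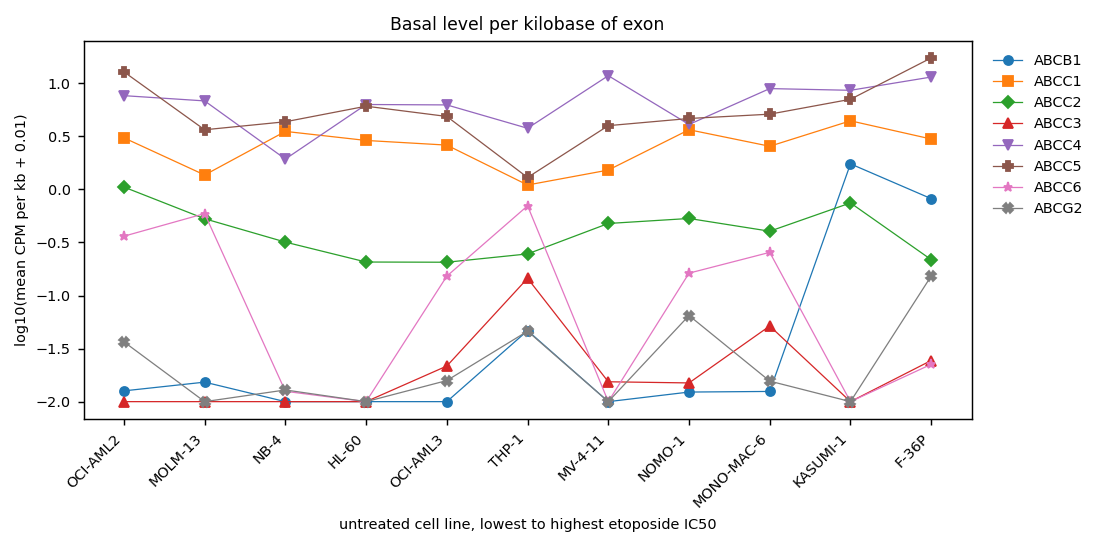
Mean basal level per kilobase of exon of each member in the 11 untreated lines, as log10(CPM per kb + 0.01), with lines in order of IC50; the connecting lines only guide the eye. ABCC4, ABCC5 and ABCC1 lie on top in every line, while ABCB1 leaves the floor in KASUMI-1, F-36P and, by less, THP-1.

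The relation of basal level to IC50 was then computed with 1 value per line, the mean of log2(1 + CPM) against log2(1 + IC50), for the 6 members with a mean of at least 1 CPM. ABCC3 and ABCG2 fell below that minimum. No member passed adjustment over all 13669 genes, of which 3.16% did. Without adjustment ABCB1 alone was below 0.05 by permutation, beside 16.3% of all genes by the parametric test. For ABCB1 Pearson's r was 0.74 over 11 lines (two-sided permutation p = 0.0241, adjusted p = 0.132) and Spearman's rho was 0.40 (permutation p = 0.227). KASUMI-1 and F-36P, the pair farthest from the median IC50, also carry the ABCB1 transcript, and with F-36P left out r came to 0.72 over 10 lines (permutation p = 0.0449). Without both, r was -0.0207 over 9 lines (exact permutation p = 0.944), but 8 of these held 0 to 2 reads of ABCB1 and could show no relation. The r of ABCB1 is thus a contrast of KASUMI-1 and F-36P with lines that have little or none of it. For ABCC5 r was 0.56 (permutation p = 0.113, adjusted p = 0.373) and 0.08 without F-36P. ABCC4 had r = 0.48 (permutation p = 0.133, adjusted p = 0.468) with rho = 0.45 (permutation p = 0.164), and r = 0.30 without the farthest pair. ABCC1, ABCC2 and ABCC6 gave r of 0.27, -0.23 and -0.37, with permutation p of 0.430, 0.528 and 0.285.

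Some other genes followed the same order of lines, which is given as a description over 11 lines and 13594 genes, whose levels come from the same 33 libraries. Likest to ABCB1 were FABP5P3 (r = 0.997, a pseudogene whose reads may belong to a copy), MYO18B (r = 0.992) and GGTA1 (r = 0.988), all highest in KASUMI-1 and then F-36P. YEATS2 and ACVR1B came nearest to ABCC1 at r of 0.957 and 0.955. MMP25, TMEM71 and PAK1 came nearest to ABCC2 (r of 0.888, 0.888 and 0.876), all highest in OCI-AML2. For ABCC4 they were MPV17, MBOAT1 and ERN1 (0.937, 0.875 and 0.864), and for ABCC5 the pseudogene PCBP2P2, PRR3 and USP24 (0.918, 0.903 and 0.878). TPM2, PPP1R3G and SDCBP were nearest to ABCC6 (0.958, 0.940 and 0.935), all highest in THP-1 and then MOLM-13. Among the members themselves the highest r was 0.65, between ABCC1 and ABCC5, and the lowest was -0.60, between ABCC1 and ABCC6.

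Etoposide libraries were next compared with untreated ones in each of the 10 lines. Of 80 combinations of member and line, 53 had enough reads to be tested and 27 did not. A call required an adjusted p below 0.05 in edgeR's quasi-likelihood test and a fold change above 2. Members were called induced 11 times of 53 (20.8%), against 11.1% of all 143149 tests, and repressed 5 times (9.43%), against 3.96%. In 4 of the 11 the gene passed the read filter through its etoposide libraries alone (ABCB1 in THP-1 and NOMO-1, ABCC3 in MONO-MAC-6 and F-36P), so these had to differ and the induced share supports nothing by itself. With no fold minimum, 19 tests passed higher and 17 lower, against backgrounds of 27.7% and 24.4%. The 3 etoposide libraries all lay above the untreated ones in 20 tests and below them in 18, where the backgrounds were 31.2% and 28.6%. The median log2 fold change of the members was -0.03, beside 0.01 for all genes.

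By line, F-36P had the most calls, 4 induced and 1 repressed of 7 tested, in a line where 30.9% of all genes were called. THP-1 had 3 of 7 (background 9.83%), MOLM-13 2 of 5 (12%) and MONO-MAC-6 2 of 6 (13%). HL-60 had 1 of 4 (6.58%), OCI-AML3 1 of 5 (8.54%), NOMO-1 1 of 6 (12.8%) and KASUMI-1 1 of 5 (21.1%). NB-4 and MV-4-11 had none of 4 each, with backgrounds of 18% and 15.1%, although 3 and 4 of their tests passed without the fold minimum. In OCI-AML2 no member was called and none was below 0.05 unadjusted, and 0% of its genes were called by edgeR or DESeq2, with 456 of 13604 below 0.05 unadjusted.

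ABCB1 was induced in 3 of the 4 lines where it could be tested. In THP-1 and NOMO-1 it passed the read filter through its etoposide libraries alone. A rise was needed there for a test to exist, so those calls and their adjusted p support nothing by themselves. In KASUMI-1 and F-36P ABCB1 passed the filter through both groups. In THP-1 it went from 0.157, 0.206 and 0.363 CPM to 8.63, 7.98 and 10.4 CPM, from 14 reads to 589. This was a log2 fold change of 5.18 ± 0.29 (SE, adjusted p = 5.08e-10, edgeR). In NOMO-1 a single read in the 3 untreated libraries stood against 27, 65 and 32 reads after etoposide, a ratio of 120 with an exact 95% counting interval of 21.2 to 4786 (log2 fold change 6.46 ± 0.75 in the fit, adjusted p = 2.21e-05). F-36P, where ABCB1 was already present, rose from 3.27, 5.16 and 8.24 CPM to 23.7, 21.6 and 24.9 CPM, by 2.07 ± 0.27 on the log2 scale (adjusted p = 9.61e-05). KASUMI-1, with the highest basal level, read 11.8, 11.7 and 9.87 CPM before and 13.3, 10.4 and 13.5 CPM after, and the groups overlapped (0.16 ± 0.14, adjusted p = 0.324). MONO-MAC-6 went from 1 read to 15, too few to test, with a ratio of 13.5 and an interval of 2.08 to 568. In HL-60, OCI-AML3 and MV-4-11 no ABCB1 read was found in any of the 6 libraries, and MOLM-13 and NB-4 had no more than 2 reads in a group. The neighbour ABCB4, a phospholipid transporter of the same subfamily, rose in all 6 of the 10 lines where it was tested, with and without a change of ABCB1. Its log2 fold change was highest in MOLM-13 (1.48 ± 0.31, adjusted p = 0.00243), where ABCB1 had 0 to 2 reads, and was 0.97 ± 0.19 in F-36P, 0.96 ± 0.16 in THP-1, 0.83 ± 0.09 in MONO-MAC-6, 0.83 ± 0.15 in OCI-AML3 and 0.63 ± 0.16 in KASUMI-1, with adjusted p of 0.00722 or less. RUNDC3B overlaps ABCB1 on the opposite strand, and which strand setting produced the deposited counts is not stated. It rose in NOMO-1 from 1.61 to 7.93 CPM (log2 fold change 2.29 ± 0.27, adjusted p = 2.42e-05) and read 0.433 CPM before and 0.708 CPM after in THP-1 (adjusted p = 0.201).

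ABCC3 was called induced in each of the 3 lines where it was tested. In F-36P and MONO-MAC-6 it passed the read filter through its etoposide libraries alone. A rise was needed there for a test to exist, so those calls and their adjusted p support nothing by themselves. In THP-1 ABCC3 passed the filter through both groups. F-36P went from 0.113, 0 and 0.334 CPM to 3.02, 3.08 and 3.57 CPM, a log2 fold change of 4.36 ± 0.46 (adjusted p = 2.98e-05, edgeR). In MONO-MAC-6 it rose from 0.408, 0.547 and 0.294 CPM to 2.27, 2.79 and 2.40 CPM (2.56 ± 0.25, adjusted p = 3.48e-06). THP-1 rose from 1.83, 0.927 and 1.25 CPM to 6.18, 4.98 and 4.70 CPM (1.98 ± 0.24, adjusted p = 8.04e-06). In the untested lines all 3 etoposide libraries also lay above the untreated ones in KASUMI-1 (0 to 22 reads, at least 6.37-fold higher with 3 reads over the group as the floor), in MV-4-11 (3 to 36 reads, a ratio of 9.10 with an interval of 2.87 to 46.2) and in OCI-AML3 (7 to 28 reads). HL-60 had no ABCC3 read. Monocyte markers moved in some of the same lines, and over the 8 genes the summed level went from 676 to 745 CPM up to 1176 to 1288 CPM in THP-1 and from 186 to 196 up to 312 to 350 CPM in F-36P. In MONO-MAC-6 it went down, from 4120 to 4487 CPM to 3485 to 3890 CPM. The summed level also rose in KASUMI-1, from 83.0 to 91.3 up to 473 to 514 CPM, where ABCC3 went from 0 to 22 reads. In MOLM-13 it rose from 1462 to 2296 up to 4966 to 5981 CPM, where ABCC3 went from 0 to 2 reads. The sum rose in MV-4-11 from 358 to 457 up to 1017 to 1318 CPM. For OCI-AML3 it was 440 to 502 before and 1495 to 1598 CPM after. NB-4, where ABCC3 went from 0 to 4 reads, rose from 72.3 to 84.5 up to 190 to 209 CPM. HL-60, without an ABCC3 read, rose from 6.81 to 9.23 up to 14.4 to 22.3 CPM. The ranges of NOMO-1 overlapped. The part of these markers in the ABCC3 values was not tested. The calcium channel gene CACNA1G, 7302 bases away, was called induced in F-36P too (4.77 ± 0.58, adjusted p = 7.20e-05) and went from 1 read to 36 in KASUMI-1 and from 2 to 15 in MONO-MAC-6. ANKRD40, on the other side, fell in F-36P (-0.50 ± 0.11, adjusted p = 0.00263) and did not pass in MONO-MAC-6 or THP-1.

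ABCC4 was the member with a negative log2 fold change in all 10 lines, under each normalization tried. It was repressed in the 3 lines of the highest IC50. F-36P fell from 82.2, 101 and 133 CPM to 43.7, 37.9 and 39.5 CPM (log2 fold change -1.38 ± 0.17, adjusted p = 8.10e-05, edgeR). KASUMI-1 fell from 84.3, 74.4 and 63.2 CPM to 32.4, 26.7 and 29.7 CPM (-1.32 ± 0.12, adjusted p = 1.47e-05). MONO-MAC-6 fell from 86.5, 74.7 and 78.6 CPM to 36.6, 35.0 and 39.1 CPM (-1.11 ± 0.07, adjusted p = 8.91e-08), a fold change that drops below 2 when libraries are scaled by size alone. No library of either group overlapped the other in these lines. Smaller falls passed in NB-4 (-0.81 ± 0.14), MV-4-11 (-0.62 ± 0.07), HL-60 (-0.42 ± 0.11) and OCI-AML3 (-0.39 ± 0.09), with adjusted p of 0.0122 or less. In THP-1, MOLM-13 and NOMO-1 the values were -0.35 ± 0.14, -0.22 ± 0.10 and -0.16 ± 0.09 (adjusted p of 0.0738, 0.0770 and 0.162), and their groups overlapped. The HL-60 value no longer passed without untreated replicate 1 (-0.35, adjusted p = 0.0754).

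ABCC2 had a negative log2 fold change in 9 of 10 lines, passing the test in 6 of them, and rose in F-36P. In HL-60 it fell from 1.67, 1.08 and 2.21 CPM to 0.677, 0.736 and 0.520 CPM (log2 fold change -1.35 ± 0.33, adjusted p = 0.00661, edgeR). In THP-1 it fell from 2.36, 1.75 and 1.61 CPM to 0.756, 0.591 and 0.940 CPM (-1.31 ± 0.29, adjusted p = 0.00243). MONO-MAC-6, MV-4-11, NOMO-1 and NB-4 fell too, with log2 fold changes of -0.99 ± 0.17, -0.80 ± 0.18, -0.76 ± 0.20 and -0.74 ± 0.22 (adjusted p of 0.00949 or less), under the fold limit. OCI-AML3 (-0.58 ± 0.29), MOLM-13 (-0.34 ± 0.18) and KASUMI-1 (-0.18 ± 0.15) did not pass. F-36P went the other way, from 1.80, 1.80 and 1.56 CPM to 3.40, 3.48 and 4.68 CPM (1.16 ± 0.21, adjusted p = 0.000758), without overlap. Its fold change fell under 2 without untreated replicate 3 or etoposide replicate 3, while its adjusted p stayed below 0.05. The flanking genes differed from ABCC2 in F-36P, since CUTC was lower (-0.78 ± 0.13, adjusted p = 0.000506) and DNMBP did not pass (0.20 ± 0.14, adjusted p = 0.233).

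ABCC1 split the lines. MOLM-13 rose from 11.2, 11.5 and 11.4 CPM to 20.0, 24.5 and 24.7 CPM (log2 fold change 1.02 ± 0.11, adjusted p = 2.69e-05, edgeR), just over the fold limit, which it missed without etoposide replicate 2 or 3. MV-4-11 rose from 14.5, 13.2 and 14.6 CPM to 23.4, 23.0 and 26.6 CPM (0.78 ± 0.09, adjusted p = 1.81e-07). THP-1 rose from 10.4, 8.76 and 10.2 CPM to 15.1, 17.6 and 15.7 CPM (0.72 ± 0.15, adjusted p = 0.00118). These are the 3 lines of the lowest basal ABCC1. F-36P fell from 28.9, 23.7 and 29.8 CPM to 12.7, 13.8 and 17.4 CPM (-0.91 ± 0.16, adjusted p = 0.000657), and KASUMI-1 (-0.54 ± 0.10, adjusted p = 0.000917) and MONO-MAC-6 (-0.34 ± 0.08, adjusted p = 0.00235) fell less. HL-60, NB-4, OCI-AML3 and NOMO-1 lay between 0.16 and -0.18 on the log2 scale, with overlapping groups and adjusted p of 0.192 or more. The CEP20 gene, which lies on the lower-coordinate side of ABCC1, did not pass in F-36P (-0.28 ± 0.17, adjusted p = 0.181).

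ABCC5 changed least and was never called. It was higher in MV-4-11 (0.64 ± 0.07), MOLM-13 (0.47 ± 0.08), OCI-AML3 (0.45 ± 0.08), NB-4 (0.27 ± 0.09) and MONO-MAC-6 (0.19 ± 0.06), with adjusted p of 0.0172 or less in edgeR. In MV-4-11 the values were 51.4, 49.8 and 43.9 CPM before and 72.8, 73.2 and 79.2 CPM after. F-36P, whose basal level was the highest, fell from 211, 213 and 202 CPM to 148, 148 and 132 CPM (-0.54 ± 0.10, adjusted p = 0.00114). PARL, its neighbour, fell further in F-36P (-1.01 ± 0.12, adjusted p = 5.22e-05). HL-60, NOMO-1, THP-1 and KASUMI-1 did not pass, at 0.08, 0.10, -0.03 and -0.24. After etoposide ABCC5 was the highest member per kilobase in 7 of 10 lines, with ABCC4 first in the other 3.

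ABCC6, which lies tail to tail with ABCC1 at a distance of 6307 bases, was induced in MOLM-13 and OCI-AML3. MOLM-13 went from 3.98, 3.46 and 4.14 CPM to 10.0, 10.2 and 9.73 CPM (log2 fold change 1.37 ± 0.12, adjusted p = 1.17e-05, edgeR), 1 of the 3 lines in which ABCC1 rose. In OCI-AML3 the values were 0.984, 1.12 and 0.861 CPM before and 1.64, 2.33 and 2.54 CPM after (1.13 ± 0.23, adjusted p = 0.00521). MONO-MAC-6 rose by 0.62 ± 0.20 (adjusted p = 0.0163), a value that missed 0.05 without untreated replicate 3 and without etoposide replicate 1 or 2. NOMO-1 (0.45 ± 0.29) and THP-1 (0.34 ± 0.22) did not pass. In MV-4-11, with 0 untreated reads, 10, 7 and 15 reads were counted after etoposide, at least 8.09-fold higher. The neighbour NOMO3, 8983 bases away, rose in the same 3 lines, by 0.80 ± 0.16 in MOLM-13 (adjusted p = 0.00201), 0.63 ± 0.12 in OCI-AML3 (adjusted p = 0.00395) and 0.75 ± 0.12 in MV-4-11 (adjusted p = 1.93e-05), and it was repressed in KASUMI-1 (-1.54 ± 0.27, adjusted p = 0.000759). NOMO3 has near-identical copies, so its counts are uncertain.

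ABCG2 could be tested only in F-36P, where it was induced from 0.733, 0.812 and 1.00 CPM to 3.16, 2.27 and 3.09 CPM (1.74 ± 0.24, adjusted p = 0.000167, edgeR). NB-4 went from 1 read to 10, 10 and 15 reads (a ratio of 29.2, interval 4.92 to 1188) and MONO-MAC-6 from 2 reads to 22 (9.89, interval 2.43 to 86.8). The 3 KASUMI-1 libraries held 5, 3 and 1 reads after etoposide and 0 before. NOMO-1 was level at 20 and 22 reads, and the other 5 lines held 19 reads or fewer in a group. The neighbour PKD2 rose in F-36P as well (0.86 ± 0.13, adjusted p = 0.000210), and PPM1K did not pass (0.31 ± 0.16, adjusted p = 0.128).

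The change differed between the 10 lines for each of the 8 members (interaction test of edgeR, 9 degrees of freedom), as it did for 74.5% of 19974 genes. Adjusted p were lowest for ABCC1 (1.49e-15) and ABCC5 (5.04e-11). They were highest for ABCC3 (0.0256) and ABCG2 (0.00212). For ABCC3 the test was not passed without F-36P (adjusted p = 0.318), and leaving out the libraries of replicate 1, 2 or 3 lost ABCC3 (adjusted p of 0.292 and 0.134 without 1 and 2), ABCG2 (0.0859 without 1, and also not passed without 2) or ABCC6 (0.0635 without 3).

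The change was also set against the IC50 for ABCC1, ABCC2, ABCC4 and ABCC5, the 4 members tested in all 10 lines. None passed adjustment over 10588 genes, of which 3.54% did, and all 4 were below 0.05 unadjusted by permutation, where the share of all genes by the parametric test was 22.1%. The r was -0.75 for ABCC1 (two-sided permutation p = 0.00267, adjusted p = 0.116), with rho = -0.79 (permutation p = 0.00869). For ABCC4 it was -0.77 (permutation p = 0.00226, adjusted p = 0.0992), with rho = -0.58 (permutation p = 0.0871). ABCC5 gave -0.79 (permutation p = 0.00718, adjusted p = 0.0885), with rho = -0.60 (permutation p = 0.0737), and -0.55 without F-36P (exact permutation p = 0.132). ABCC2 gave 0.84 (permutation p = 0.0235, adjusted p = 0.0564), with rho = 0.27 (permutation p = 0.447), and 0.28 without F-36P (exact permutation p = 0.471), so this relation rests on that line. Without F-36P r was -0.69 for ABCC1 and -0.78 for ABCC4 (exact permutation p of 0.0388 and 0.0186). Without KASUMI-1 as well, 8 lines remained and r was -0.56, -0.58, -0.17 and -0.24 for ABCC1, ABCC4, ABCC5 and ABCC2, each with an exact permutation p of 0.137 or more. For ABCC2 and ABCC5 the relation thus rests on the 2 lines of the highest IC50, which also received the highest doses. For ABCC1 and ABCC4 r kept its sign and most of its size without them, but no longer passed over 8 lines.

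**Figure D2:**
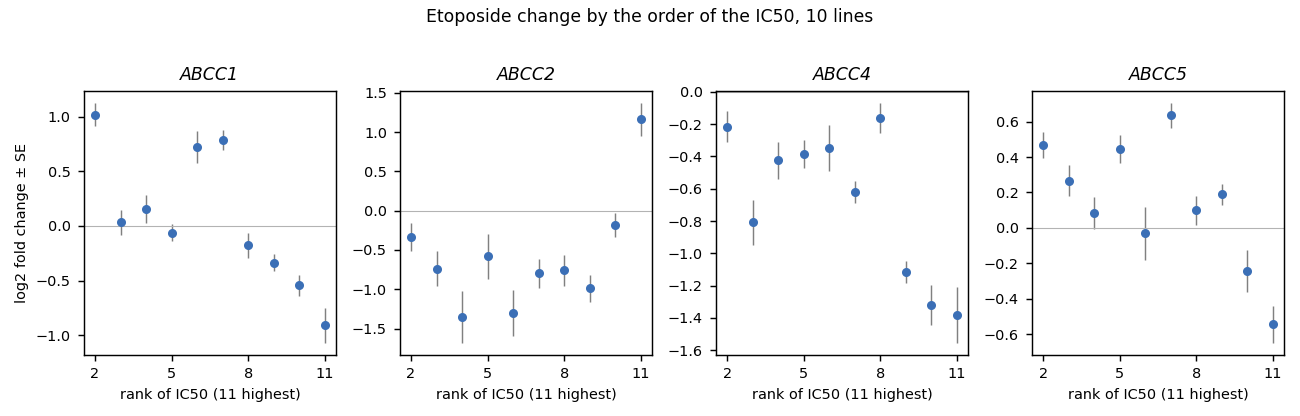
Log2 fold change with its SE for the 4 members tested in all 10 lines, against the rank of the line's IC50 (2 for MOLM-13 to 11 for F-36P). ABCC1, ABCC4 and ABCC5 are lowest at ranks 10 and 11, and ABCC2 is above 0 at rank 11 alone.

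The other 40 ABC genes were counted with the same calls, of which 36 were tested in at least 1 line. They were induced in 40 of 229 tests (17.5%) and repressed in 11 (4.80%), with a median log2 fold change of -0.00, beside 11.1% and 3.96% of all tests. Genes that pass the read filter through their etoposide libraries alone have to differ, as 10170 of all 143149 tests did. Such tests were not counted for these genes or for the lists below, so their induced shares support nothing by themselves. The 18 lipid and sterol transporters held 30 of these inductions and 4 of the repressions in 80 tests (37.5% and 5%), led by ABCA7 (induced in 6 of 10 lines, up to 1.52 ± 0.13 in NB-4), ABCA10 (5 of 5 lines tested) and the sterol exporter ABCG1 (3 of 3). Among the 8 peptide, mitochondrial and lysosomal transporters there were 6 inductions (10.2%) and 3 repressions (5.08%) in 59 tests. The peptide transporter TAP1 was induced in 3 lines (2.80 ± 0.35 in F-36P), ABCB9 in 2, and ABCB10 of the mitochondrion was repressed in 3. The remaining subfamily C genes had 4 inductions in 14 tests (28.6%), among them ABCC9, ABCC8 and CFTR, each tested in F-36P alone. The 4 subfamily D genes had 0 calls in 36 tests. Subfamilies E and F, which have no membrane domain, had 4 repressions in 40 tests (10%), with ABCF2 in 2 lines and ABCE1 and ABCF1 in 1 each.

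Genes of related function are read against the same 11.1% induced and 3.96% repressed of all tests. Glutathione synthesis and conjugation, which supplies substrates to the ABCC pumps, had 3 inductions in 146 tests (2.05%), all of GSTM2, and 0 repressions. Resistance and drug handling genes outside the ABC family had 14 inductions (15.4%) and 9 repressions (9.89%) in 91 tests. MVP, the major vault protein, was induced in 6 of 10 lines, SLCO4A1 was repressed in 4, and SLC22A16 was induced in 2 and repressed in 1. Regulators named for these transporters had 12 inductions (9.16%) and 1 repression (0.763%) in 131 tests, led by PPARG (4 lines, up to 3.59 ± 0.16 in NOMO-1), ETS1 (3 lines) and AHR (2 lines).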

How the data were processed

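Total RNA of 11 AML cell lines was sequenced single-end after TruSeq stranded mRNA preparation, in 33 untreated and 33 etoposide libraries. The deposited values are read counts per gene, which the authors made with STAR 2.5.3a on GRCh38.p7 and gencode 25. Which of STAR's strand columns was deposited is not given in the sources used here. Of 58037 gene identifiers, 45 copies in the pseudoautosomal region of Y held no reads and were left out. Names and positions came from gencode 44, and promoter sequences from RefSeq.

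Within each line, genes were filtered with filterByExpr (minimum count 10, total 15), scaled by TMM and tested with the quasi-likelihood F test of edgeR 4.0.16 (R 4.3.3) on the raw counts, with Benjamini-Hochberg adjustment over all genes of the line. Basal levels were fitted over the 33 untreated libraries, and the difference between lines over 60 libraries. IC50 values came from the supplement of the study. Relations with them (6 for basal level, 4 for change) used 100000 permutations, or all permutations below 10 lines, and were adjusted over all genes. DESeq2 1.42.0, other scalings, filters and left-out libraries were tried as alternatives. On counts simulated from F-36P, 188 of 191 changed genes were recovered among 15217, with 3 false calls. The planted changes were all well above the fold limit of 2 and as often higher as lower. Recovery near that limit, or with 30.9% of genes called as in F-36P itself, was not tested.

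Depth was 17997404 to 24101670 reads per library, and intervals and floors cover counting error only. No pair of replicates agreed within counting noise (lowest chi-square per degree of freedom 2.12). The study's methods describe 3 biological replicates in general, while the labels do not say whether libraries of a group came from separate cultures, so p-values measure the spread between these libraries. Same-numbered libraries deviated together in NB-4 alone. The text names the 8 members, the 3 genes likest to each in basal pattern, the nearest coding neighbours and up to 3 genes per list, and the values of some genes that these rules pick are not reported here. The members and lists were chosen with earlier results of these data known.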

Additional observations from a re-analysis of the deposited data

Results flagged for a closer look

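The change after etoposide differed between the 10 lines for all 8 transporters, by the interaction test of edgeR with adjustment over 19974 genes. The adjusted p was 2.48e-10 for ABCB1, 1.49e-15 for ABCC1, 1.60e-08 for ABCC2, 0.0256 for ABCC3, 4.30e-10 for ABCC4, 5.04e-11 for ABCC5, 0.000513 for ABCC6 and 0.00212 for ABCG2. Since 74.5% of all genes passed the same test, this does not set the transporters apart. The lines also received different doses, and line and dose cannot be told apart. ABCC1, ABCC2 and ABCC5 had lines that passed in opposite directions, with ABCC2 higher and ABCC5 lower in F-36P alone.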

How the results depend on the processing

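The 11 induced and 5 repressed calls came to 19 and 6 with no filter on low counts, to 3 and 3 where a mean of 5 CPM was required, to 20 and 5 in 1 fit of 60 libraries, and to 19 and 17 with no fold minimum. The calls added without the filter were of low genes, among them ABCB1 in MONO-MAC-6, ABCC3 in KASUMI-1, MV-4-11 and OCI-AML3, ABCC6 in F-36P and MV-4-11, and ABCG2 in KASUMI-1, MONO-MAC-6 and NB-4. DESeq2, the exact test of edgeR and RLE scaling each gave 11 and 5. Library size alone gave 11 and 4, moved the median of all genes in F-36P to 0.34 (log2) from 0.09, and raised the share of higher calls over all genes from 73.7% to 81.6%. With 1 library per group left out, induced calls ranged from 9 to 13 and repressed calls from 5 to 6. The 36 member changes with an adjusted p below 0.05 kept their direction wherever they were fitted, which the minimum of 5 CPM left to 21 of them. With the replicate number as a block, 11 and 5 calls and 8 interactions were found, and no call of a member changed. The interaction counted 6 to 7 members without 1 replicate number, and 7 without F-36P. Basal differences counted 7 without F-36P, where ABCG2 was not tested. On the raw IC50 scale 1 member passed for the change, ABCC2 (r = 0.87, adjusted p = 0.0479), against 0 on the log scale. The r of ABCB1 basal level was -0.0207 without the 2 lines farthest from the median IC50, which carry nearly all of its reads, so that value says nothing of its stability. Depth limits ABCB1, ABCC3, ABCC6 and ABCG2, which held 3 reads or fewer in 4 to 8 untreated lines.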

Other observations

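Lineage markers were counted with the same calls as the transporters, and their part in the transporter values was not tested. Monocyte markers were induced in 34 of 56 tests (60.7%) and repressed in 2, with a median log2 fold change of 1.26 beside 0.01 for all genes, of whose tests 11.1% were induced and 3.96% repressed. ITGAM, the alpha chain of the integrin Mac-1, was induced in 9 of 10 lines, up to 5.24 ± 0.17 in KASUMI-1 (adjusted p = 1.00e-07, edgeR). CSF1R, a receptor of the monocyte lineage, was induced in 5 of 9 lines tested. Granulocyte precursor markers were repressed in 17 of 52 tests (32.7%) and induced in 4 (7.69%), with PRTN3 (proteinase 3) repressed in 7 of 9 lines and MPO (myeloperoxidase) in 5 of 10, while CEBPE was induced in 4 and repressed in 1.

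Erythroid and megakaryocyte markers were induced in 9 of 35 tests (25.7%) and repressed in 3 (8.57%), led by ITGA2B (induced in 5 of 10 lines). KLF1 went both ways, induced in 1 and repressed in 2 of 5 lines tested, and GP9 was induced in 2 of 3. KLF1 was lowest in MONO-MAC-6 (-1.36 ± 0.27, adjusted p = 0.00103, edgeR) and highest in MV-4-11 (2.01 ± 0.35, adjusted p = 3.06e-05). The summed level of the markers in F-36P went from 1670 to 1752 CPM down to 1129 to 1231 CPM. Stem and progenitor markers had 7 inductions (15.6%) and 2 repressions (4.44%) in 45 tests, with KIT induced in 3 lines and repressed in KASUMI-1 (-1.15 ± 0.11, adjusted p = 1.32e-05, edgeR). PROM1 was induced in F-36P and CD34 in NOMO-1, both at low levels (0.0193 to 0.566 CPM and 0.501 to 1.28 CPM). In KASUMI-1, which had the most CD34, that gene fell from 591 to 436 CPM (-0.44 ± 0.07, adjusted p = 0.000323, edgeR). CD34 went from 32.8 to 57.8 CPM in F-36P without a call. Of the surface markers, PTPRC was induced in KASUMI-1 and repressed in F-36P, and CD38 was induced in MV-4-11, in 29 tests.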
